A study of Homo sapiens with 10 samples.

Results

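In A549 cells, 3902 expressed genes had m6A peaks in both immunoprecipitated libraries and 3874 had none in either, out of 10174 expressed genes and 58037 genes in the tables. A gene was taken as expressed when its RNA reached at least 5 TPM (a read count scaled by transcript length and library size) in both A549 input libraries. Genes were selected on these TPM values and on the m6A peak lists: marked genes were named by both lists, unmarked genes by neither, and the 2398 genes named by 1 list were set aside. Marked genes made up 38.4% of the expressed genes and unmarked genes 38.1%. RNA level and presence of a peak are therefore descriptions of the choice. Gene size, gene family and the A549/DDP libraries were not criteria of it. Transcript length entered through the scaling of TPM. Whether length also bears on which genes have a listed peak was not tested.

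The study set m6A in A549, a human lung adenocarcinoma line, beside A549/DDP, its derivative resistant to cisplatin (DDP). RNA fragments bound by an m6A antibody (m6A-seq) and untreated input fragments were sequenced, with 2 libraries of each kind per line. Both lines were grown in the same medium with serum and no treatment is named; the labels give total RNA for the inputs and poly(A) RNA for m6A-seq, and do not say whether the 2 libraries of a group came from separate cultures. A second pair of A549 inputs was also deposited.

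N6-methyladenosine is written on mRNA by a complex around METTL3 and METTL14, removed by FTO and ALKBH5, and bound by readers such as the YTHDF, YTHDC and IGF2BP proteins, which affect decay, translation and splicing. The methylated adenosine usually sits in a short consensus with GGAC as its commonest core, and the mark is known to gather in long internal exons and around stop codons and to be sparse close to exon junctions. Methylated transcripts are, as a class, known for regulatory genes and short-lived mRNAs.

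The A549 inputs held 35286500 and 34570100 expected counts. The expressed genes took 98.4% of all TPM in A549 input 1 and 98.0% in input 2. Over the 10174 genes the pair differed by more than counting noise, with a chi-square of 125 per degree of freedom, which does not tell separate cultures from separate preparations. Their log2(TPM + 1) values correlated across genes at 0.949, where genes are not independent replicates. Values are given for each library.

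The epithelial identity of the line was plain in the inputs. The 6 epithelial markers summed to 8621 TPM in A549 input 1 and 11389 TPM in input 2, led by KRT7 (4937 and 3468 TPM) and KRT8 (2028 and 5231 TPM), keratins of simple epithelia. EPCAM was low at 2.45 and 6.95 TPM. Leukocyte markers summed to 0.69 and 0.03 TPM and endothelial markers to 0.21 and 0.40 TPM, with CD3E and VWF at 0 in both libraries. Of the fibroblast markers, COL1A1 stood at 7.89 and 5.02 TPM and entered the unmarked genes, while COL3A1 and DCN were at or below 1.17 TPM. CDKN2A, known to be deleted in A549, was at 0.29 and 0.00 TPM.

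The A549 m6A-seq lists held 26320 peaks in replicate 1 and 14576 in replicate 2. Marked genes carried 14540 of the replicate 1 peaks (55.2%) and 11884 of the replicate 2 peaks (81.5%). The longer list therefore had more of its peaks outside the marked genes, which leave out genes in both lists under the TPM limit. A marked gene had a median of 3 peaks in each list, and 2474 marked genes (63.4%) had 3 or more in replicate 1 against 2020 (51.8%) in replicate 2. The blocks of these peaks covered a median of 1139 bases per gene in replicate 1 and 797 in replicate 2, or 55.7% and 40.1% of the transcript length in the tables. Peaks of the 2 lists shared at least 1 base in 3871 of the 3902 marked genes (99.2%). With so much of each transcript covered, an overlap of 1 base says little about whether the lists mark the same sites.

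Peaks lay towards the 3′ end of the gene. Of the peaks with their middle inside the gene's RefSeq span (the genomic distance from its first to its last base, introns included), 33.1% in replicate 1 and 35.9% in replicate 2 fell in the last decile of that span. The ninth decile held 13.8% and 14.3%, the first 10.9% and 9.97%, and the third, the lowest, 4.39% and 3.79%. The share thus rose towards the end of the gene from the third decile on, with a smaller excess in the first decile over its neighbours. Peaks lie in exons, and the exon bases in each decile were not known here. Whether exon layout contributes to these shares was not tested. A peak of several blocks can also have its middle in an intron. EEF2, the translocase of translation elongation, had 1 peak in each list, at chr19:3976255-3976652 and chr19:3976106-3976702 (hg38, minus strand), both in the last decile of its span. KEAP1, the adaptor that targets NRF2 for degradation, had 6 peaks in replicate 1 and 5 in replicate 2, of which chr19:10486169-10486318 on the minus strand was identical in both. YTHDF1, the m6A reader at the centre of the study, carried a peak of 1331 bases at chr20:63202360-63203690 in replicate 1 and one of the same size at chr20:63202409-63203739 in replicate 2.

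Some peaks reached the first transcribed bases, and the start is the one region whose sequence could be read here. The RefSeq promoter table (GRCh38) gave a single start for 2202 of the 3902 marked genes (56.4%) and 2073 of the 3874 unmarked genes (53.5%). With so many genes of each class unmatched, shares of a motif were not compared between the classes. Among the 2202 marked genes, 197 had peaks in both lists over the first 50 transcribed bases. GGAC was present in 46 of these 197 windows (23.4%) and GTCC, its match on the other strand, in 36 (18.3%); the shares were 19.95% and 19.7% in the other 2005 marked genes, and 18.9% and 17.6% over all 35116 promoter entries. No test was made of these shares. Examples were chosen for holding GGAC under peaks of both lists, by RNA level and with 1 chromosome left out because its sequence is not printed here, and are shown with GGAC in capitals.
PFN1: cgcggtccGGACggcagcgcgtgc
YWHAE: tgctgcccGGACgcggagcgagag
NHP2: aaagctgtGGACcgcgtgggctcg
EIF3K: gtccttgaGGACgccgtgccgggt
PRCC: gttgcccgGGACtaggagcttaag
These 24-base windows are at chr17:4948493-4948516 (PFN1, minus strand), chr17:1400178-1400201 (YWHAE, minus), chr5:178153851-178153874 (NHP2, minus), chr19:38619202-38619225 (EIF3K, plus) and chr1:156767553-156767576 (PRCC, plus). PFN1, which encodes the actin-binding protein profilin, stood at 1378 and 1131 TPM and had 3 peaks in each list. YWHAE, a 14-3-3 adaptor, stood at 1140 and 1137 TPM, with 4 and 5 peaks. A match of 4 letters describes the window and does not show that the adenosine is methylated.

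Marked genes had the higher median RNA level and unmarked genes the higher mean. Their median was 37.6 TPM in A549 input 1 and 40.5 TPM in input 2, against 28.04 and 32.6 TPM for unmarked genes and 29.9 and 33.6 TPM for genes in 1 list. The ratio of the medians was 1.34 in input 1 and 1.24 in input 2. It depended on the settings: against 1.31 for the mean of both inputs, it was 2.43 at a TPM of at least 1, and reversed to 0.946 with peaks at a listed p of 1e-05 or less and to 0.941 in the second A549 input pair. At that p limit, a gene with only weaker peaks counted as unmarked. With all listed peaks, the means went the other way from the medians, with 94.2 and 93.4 TPM for marked and 105.9 and 105.0 TPM for unmarked genes. Unmarked genes accordingly took 41.03% and 40.7% of all TPM in the 2 inputs, and marked genes 36.7% and 36.5%.

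Sorted into deciles by mean TPM, the share of marked genes rose from 26.3% (Wilson 95% interval 23.7% to 29.1%, counting error only) in the lowest decile to 45.03% (42.0% to 48.1%) in the sixth, and was 35.6% (32.7% to 38.5%) in the highest. Unmarked genes made up 47.1% of the lowest decile and 44.6% of the highest. Of the 130 genes with a mean of at least 1000 TPM, 41 were marked (31.5%) and 64 unmarked (49.2%). Both ends of the range thus had a smaller marked share than its upper middle. Deciles of the expected count gave the same shape, from 23.8% marked at a median of 222.0 counts to 48.1% in the ninth decile and 39.9% in the highest, at a median of 11757 counts.

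The 10 highest unmarked genes were ACTG1, RPL4, ALDH1A1, FTL, ANXA2, GAPDH, ITGB1, PABPC1, RPS6 and ACTN4. ACTG1, cytoplasmic gamma-actin, stood at 5963 and 4935 TPM in the 2 inputs, and ALDH1A1, an aldehyde dehydrogenase, at 4390 and 5150 TPM. Of these, 5 were also named by neither A549/DDP list: ACTG1, ALDH1A1, ANXA2, PABPC1 and ACTN4. The share named by neither was 66.4% of all unmarked genes and 39.4% of all expressed genes. The 10 highest marked genes were RPL13A, FTH1, KRT7, RPL8, KRT8, RPL19, RPS2, EEF2, TPM1 and RPL26. RPL13A, a protein of the large ribosomal subunit, stood at 4852 and 4007 TPM with 4 and 5 peaks. The subunits of ferritin fell into opposite classes: FTH1, the heavy chain, was marked at 4451 and 4255 TPM, and FTL, the light chain, unmarked at 4204 and 4255 TPM.

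Marked transcripts were longer. The effective length (the number of positions from which a fragment of the library can start) had a median of 1917 bases in A549 input 1 and 1898 in input 2 for marked genes, against 1540 and 1550 for unmarked genes. Averaged over both inputs, the quartiles were 1174, 1928 and 3083 bases in marked and 1027, 1558 and 2449 in unmarked genes. The share of marked genes was lowest in the third decile of effective length, at 30.7% (Wilson 95% interval 27.9% to 33.6%), and highest in the longest decile, at 49.3% (46.2% to 52.4%). Within each quintile of TPM the marked median was also the greater one, by the widest margin among the least abundant genes (2500 against 1910 bases) and by the narrowest in the most abundant quintile (1346 against 1307 bases). The difference in length was not carried over to all peak sets: among the same genes expressed in A549, classes drawn from the A549/DDP lists had medians of 1622 bases for 2884 genes in both lists and 1719 bases for 4013 genes in neither, a ratio of 0.943, and with A549 peaks limited to a listed p of 1e-05 or less the ratio was 0.803. Both of these reverse the direction. At that p limit, genes with only weaker peaks are among the unmarked ones.

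AHNAK, a giant scaffold protein, was the longest unmarked gene, with an effective length of 14610 bases at 295 and 348 TPM and no peak in any of the 4 lists. The other long unmarked genes, RAB3B, DST, LRP1 and VPS13D, also had no peak in any list. AHNAK2, a paralog of AHNAK, had the most peaks averaged over both lists, with 34 in replicate 1, some of them overlapping one another, and 8 in replicate 2, at 225 and 230 TPM. ANKRD11 (16 and 19 peaks), ZFHX3 (19 and 15) and CFLAR (19 and 14) followed; ANKRD11 and ZFHX3 encode regulators of transcription and CFLAR an inhibitor of caspase-8. At the short end, the marked genes SNHG9, RPS21, SYNJ2BP-COX16 and ATP5MK had effective lengths of 167, 236, 238 and 260 bases, with another gene that has no symbol. SYNJ2BP-COX16 is a read-through transcript that shares sequence with its neighbours, so its counts are uncertain.

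The genomic span differed between these classes in the direction opposite to transcript length, though not with all peak sets. This comparison was chosen after the data were seen. A RefSeq span was found for 3806 marked genes (97.5%) and 3708 unmarked genes (95.7%). The median span was 21304 bases in marked genes, 44437 in unmarked genes and 29511 in genes named by 1 list, the last falling between the others. Spans under 10 kb were found in 29.1% of marked and 11.1% of unmarked genes, and spans of at least 100 kb in 12.8% and 22.8%. Marked genes were thus transcribed from loci of smaller size, with a ratio of medians of 0.479. Their mature transcripts were the longer ones in these classes. With classes from the A549/DDP lists, the ratio was 0.398 for span and 0.943 for effective length. With A549 peaks at a listed p of 1e-05 or less, these ratios were 0.405 and 0.803. Both measures then went in the same direction.

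The share of marked genes fell from 62.0% (Wilson 95% interval 59.0% to 65.0%) in the decile with the shortest spans to 25.5% (22.9% to 28.3%) in the decile with the longest. The share of unmarked genes went from 18.4% to 49.7%. Median TPM changed little along these deciles, from 35.8 TPM in the first to 29.97 TPM in the last. The span divided by the effective length, a measure of how much of the locus is removed as intron, gave the steepest gradient of the measures examined: 68.6% of genes were marked in the lowest decile, at a median quotient of 2.48, and 17.97% in the highest, at 113.

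**Figure D1:**
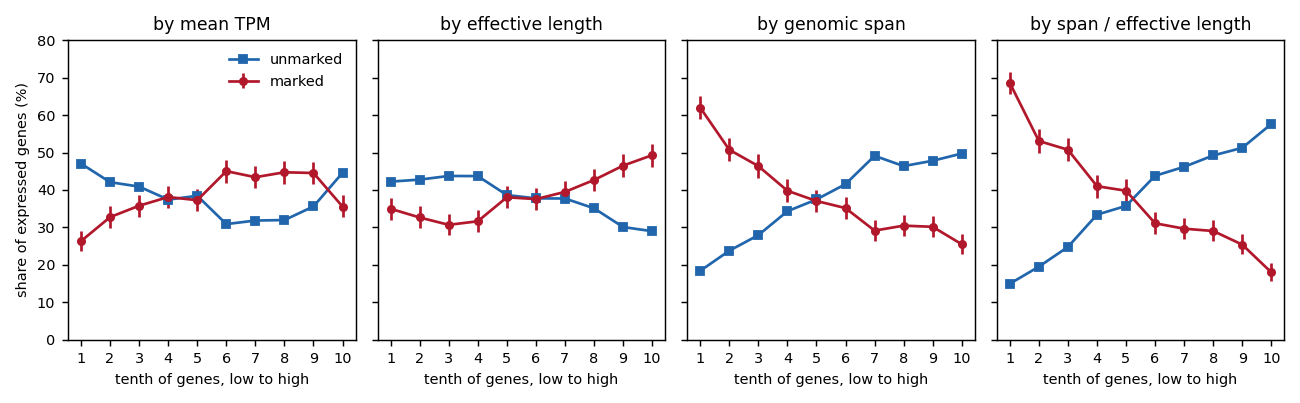
Share of expressed genes that were marked (circles, with Wilson 95% intervals) or unmarked (squares) in deciles of mean TPM, effective length, genomic span and span divided by effective length, each from low to high. The marked share falls from 62.0% to 25.5% across genomic span, and from 68.6% to 17.97% across span over length, a wider range than across TPM or effective length.

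Length and span worked in opposite directions in combination. Among genes in the shortest quintile of span, the share marked went from 47.9% of 863 genes in the shortest quintile of effective length to 81.2% of 112 genes in the longest. Among genes in the longest quintile of span it went from 11.6% of 129 genes to 37.4% of 804. In each quintile of effective length the marked share was highest in the shortest quintile of span and lower in the longest. Long transcripts from compact loci were therefore marked most often, and short transcripts from extended loci least often. Ends compared, the same held by abundance: within the lowest quintile of TPM the share marked went from 48.2% in the shortest quintile of span to 15.96% in the longest, and within the highest quintile from 52.3% to 30.7%. In the second-highest quintile of TPM the fall was not even, from 63.5% to 34.05% and then up to 41.8% for the longest spans. Whether the number of exons or the detection of peaks across long genes contributes was not tested.

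By RefSeq gene type, 3648 of 9413 expressed protein-coding genes were marked (38.8%) and 3503 unmarked (37.2%). Long noncoding RNAs were marked in 109 of 230 cases (47.4%). Among pseudogenes, 49 were marked (24.4%) and 118 unmarked (58.7%); reads of pseudogenes and their parent genes can be split by the counting, so these are uncertain. No test was made between gene types.

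Gene families differed widely around the background of 38.4% marked. At the upper end, 21 of 23 immediate early and short-lived transcripts were marked (91.3%), 31 of 41 HOX, SOX, FOX and KLF transcription factors (75.6%), 137 of 226 numbered zinc finger genes (60.6%) and 43 of 81 chromatin regulators (53.1%). At the lower end were mitochondrially encoded mRNAs with 0 of 13, glycolysis enzymes with 1 of 15 (6.67%), proteasome subunits with 6 of 37 (16.2%) and snoRNA host genes with 4 of 23 (17.4%). No test was made of these lists, which were picked by hand and are described by their counts. The shares depended on the peak limit: with a listed p of 0.001 or less, 28.8% of all expressed genes were marked, 47.3% of zinc finger genes and 8.11% of proteasome subunits.

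Immediate early genes are switched on within minutes of a stimulus, and their mRNAs decay fast. FOSL2, a Fos-family transcription factor, was the most abundant marked member at 648 and 497 TPM, with 7 and 4 peaks. JUNB stood at 201.45 and 145 TPM, with 1 and 2 peaks. MCL1, an anti-apoptotic BCL2 relative, stood at 334 and 191 TPM with 3 in each list. JUNB and MCL1 were named after their values were seen. The median span of the family was 4148 bases. SGK1, a kinase, was the only unmarked member, at 47.4 and 37.9 TPM, and its span was 148857 bases. ID1 was in 1 list.

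The developmental transcription factors followed the same line. KLF5 was the most abundant marked member at 168 and 210 TPM, with 3 peaks in each list. The 3 unmarked members were FOXP1 (34.7 and 25.2 TPM), FOXN3 (15.3 and 12.8 TPM) and FOXJ3, and the median span of these was 462989 bases, against 9214 in the 31 marked members. These 3 had the longest spans of the 41 expressed members, the shortest of them FOXJ3 at 159333 bases. Among zinc finger genes, ZNF146 led the marked members (308 and 332 TPM, with 4 and 2 peaks) and ZNF207 the unmarked ones (230 and 186 TPM). Zinc finger genes had a low median level of 15.3 TPM, where the share of marked genes over all expressed genes was below the background.

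Chromatin regulators had large loci, and 43 of the 81 expressed members were marked. Their median span was 80989 bases, and that of the 43 marked members, 87486 bases, was greater than that of the 23 unmarked members, 55673 bases. Their effective lengths differed in the direction of all genes, with medians of 4149 and 2449 bases. KDM5C, a histone demethylase, stood at 285 and 298 TPM with 7 and 5 peaks. SMARCE1, a subunit of the SWI/SNF remodelling complex, was the most abundant unmarked member at 334 and 465 TPM, yet had 7 and 6 peaks in the A549/DDP lists.

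The protein synthesis machinery was split. Cytosolic ribosomal protein genes were marked in 26 of 79 cases (32.9%) and unmarked in 35 (44.3%), although their median span of 5011 bases lay in the decile where 62.0% of all genes were marked. Their median level was 1145 TPM, which is in the highest decile of TPM. Mitochondrial ribosomal protein genes, with a median of 56.0 TPM, were marked in 35 of 78 cases (44.9%) and unmarked in 14 (17.9%). Of 61 translation factors, 18 were marked and 30 unmarked, led by EEF2 (2777 and 2690 TPM) and by EIF4A1 (1924 and 1373 TPM), the helicase of cap-dependent initiation. Aminoacyl-tRNA synthetases had 10 marked and 17 unmarked members of 36, with AARS1 (1281 and 1205 TPM) and GARS1 (719 and 766 TPM) at the top of each class. The 2 kinds of ribosome thus differed in the share of genes without a peak more than in the share with one. The snoRNA host genes, also compact at a median span of 4846 bases, were unmarked in 14 of 23 cases, led by ZFAS1 (792 and 620 TPM).

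ENO1 was the single marked glycolysis gene, at 2664 and 2351 TPM, while GAPDH (3518 and 3957 TPM) led the 10 unmarked ones. Among proteasome subunits, PSMC1, an ATPase of the regulatory particle, was unmarked at 773 and 558 TPM, and PSMD8 marked at 213 and 254 TPM. Of 75 chaperones, 24 were marked and 38 unmarked, with PPIA (1248 and 1341 TPM) and HSPA9 (1686 and 1390 TPM) the most abundant of each. Nuclear-encoded subunits of oxidative phosphorylation were close to evenly split, with 26 marked (34.2%) and 27 unmarked of 76; at a listed p of 0.001 or less 31.6% were marked, above the 28.8% of all expressed genes. Here too the marked members came from the smaller loci, with a median span of 5739 bases against 15144. Mitochondrially encoded mRNAs, which are transcribed inside mitochondria, had 8 unmarked members and 5 in 1 list; MT-ND4 was at 63.7 and 101 TPM.

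Solute carriers were marked in 65 of 142 cases (45.8%), led by SLC3A2 (2643 and 2108 TPM), a subunit of amino acid transporters. RNA helicases of the DEAD and DEAH box type were marked in 21 of 49 (42.9%), though in 26.5% with peaks at a listed p of 0.001 or less, under the 28.8% of all expressed genes at that limit, RAB GTPases in 13 of 38 (34.2%), splicing factors in 25 of 74 (33.8%) and ubiquitin-specific proteases in 11 of 39 (28.2%). Keratins (4 of 8), S100 proteins (5 of 8), replication-dependent histones (4 of 7) and metallothioneins (1 of 1) had few expressed members, and the histones fell to 28.6% at that limit. Over the 19 families with at least 3 marked and 3 unmarked members with a span, the marked members had the shorter median span in 17 and the longer one in 2, chromatin regulators and the cyclin and CDK genes. Their median effective length was greater in 13 of the 19 and their median TPM higher in 10. Of the 3 measures, span kept one direction in the largest number of families.

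Of the m6A machinery itself, 14 of 21 genes were marked (66.7%). Among the writers, METTL14 (30.6 and 25.5 TPM, with 6 and 4 peaks), METTL16, WTAP, VIRMA, ZC3H13, RBM15, RBM15B and CBLL1 were marked, while METTL3, the catalytic subunit, at 46.6 and 50.1 TPM, had 5 peaks in replicate 1 and none in replicate 2. Among the readers, YTHDF1 (48.4 and 43.6 TPM), YTHDF2 (41.8 and 33.3 TPM), YTHDF3 (59.6 and 32.2 TPM), YTHDC1 and IGF2BP2 were marked, and YTHDC2, IGF2BP1, IGF2BP3 and HNRNPA2B1 unmarked. The erasers were divided: ALKBH5 was marked (53.4 and 72.8 TPM) and FTO unmarked (40.4 and 47.3 TPM), from a locus of 417979 bases against 26127. Each functional group therefore held members outside the marked class.

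Of the other genes the study worked on, KEAP1 (54.8 and 97.8 TPM) and CDKN1B (44.7 and 70.5 TPM), a CDK inhibitor, were marked. AKR1C1, an aldo-keto reductase (134 and 145 TPM), CDK2 (19.5 and 40.01 TPM) and CCND1 (228 and 255 TPM) were unmarked. NFE2L2, which encodes NRF2, was named only by replicate 2 with 3 peaks, and CDK4 only by replicate 1 with 1 peak. The last pair thus belonged to neither class. The paper, by contrast, reports m6A peaks in both CDK2 and CDK4 from m6A-seq of A549.

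The A549/DDP lists, which played no part in the choice, gave the same division in part. Of the marked genes, 2093 (53.6%, Wilson 95% interval 52.1% to 55.2%) were named by both A549/DDP lists and 554 (14.2%, 13.1% to 15.3%) by neither. Of the unmarked genes, 276 (7.12%, 6.36% to 7.98%) were named by both and 2574 (66.4%, 64.9% to 67.9%) by neither. Over all 10174 expressed genes, 2884 (28.3%) were named by both and 4013 (39.4%) by neither, so marked genes were above and unmarked genes below the share of all in both lists. The intervals cover counting error only and do not measure how far the lists would repeat. With A549/DDP peaks limited to a listed p of 1e-05 or less, 14.7% of marked, 2.56% of unmarked and 8.20% of all expressed genes were named by both, and 47.1%, 76.8% and 61.1% by neither. The A549/DDP lists differed in size, with 27244 peaks in replicate 1 and 10661 in replicate 2, and named 83.3% and 56.1% of marked and 30.3% and 10.4% of unmarked genes. Genes in 1 A549 list were in between, with 21.5% in both and 36.9% in neither.

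The genes that changed class differed in level and size from those that did not. Marked genes absent from both A549/DDP lists had a median of 21.97 TPM in A549 and 12.4 TPM in A549/DDP. Of these 554 genes, 377 (68.1%) reached 5 TPM in both A549/DDP inputs. This share was 97.3% for marked genes in both A549/DDP lists and 82.9% for unmarked genes in neither. The median span of the 554 genes was 33152 bases, against 16129 for marked genes in both A549/DDP lists. EEF2 was the most abundant of them, at 2120 and 2162 TPM in the A549/DDP inputs. Unmarked genes in both A549/DDP lists had a median of 96.3 TPM in A549. HNRNPA2B1, an RNA-binding protein of the splicing machinery, led them at 1950 and 2370 TPM, with 6 and 3 peaks in A549/DDP, followed by RPL10 and NCL.

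Input RNA of A549/DDP and A549 was compared with edgeR's quasi-likelihood test over 16406 genes, of which 6.85% were higher and 8.0% lower in A549/DDP at an adjusted p under 0.05. Among the 10171 expressed genes tested, these shares were 8.07% and 12.5%. All 3902 marked genes were tested, and 347 were higher (8.89%) and 563 lower (14.4%). Of 3871 unmarked genes tested, 258 were higher (6.66%) and 441 lower (11.4%). Both classes were thus near the shares of all expressed genes, and both had more falls than rises. The requirement of 5 TPM in A549 leaves out genes expressed only in A549/DDP, so an excess of falls is built into the choice. The median log2 fold change was -0.15 for marked, -0.16 for unmarked and -0.14 for all expressed genes. DESeq2 called 563 marked genes higher and 843 lower, and 419 unmarked genes higher and 708 lower. With no filter beyond 1 count, edgeR called 556 marked genes higher and 906 lower, and 405 unmarked genes higher and 718 lower. The counts moved with the settings and libraries: without A549/DDP input replicate 1, 161 marked and 157 unmarked genes were higher, without A549/DDP input replicate 2, 213 and 169, and without A549 input replicate 2, 909 marked and 705 unmarked genes were lower and 410 unmarked genes higher.

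Among marked genes, the 5 largest rises were in MUC5B, CEACAM6, S100P, HSPA1B and MUC5AC. MUC5B, a gel-forming airway mucin, went from 65.5 and 68.4 CPM (counts scaled to library size) in A549 to 4195 and 3340 CPM in A549/DDP. Its log2 fold change was 5.81 ± 0.20 (SE, edgeR adjusted p = 0.000958). MUC5AC, the other main airway mucin, went from 217 and 278 CPM to 4069 and 3249 CPM, CEACAM6, an adhesion molecule, from 9.73 and 11.9 to 548 and 504 CPM, and S100P, a calcium-binding protein, from 4.95 and 2.57 to 109 and 91.5 CPM. The libraries of the 2 lines did not overlap in any of these genes, which were picked for large rises in the same libraries. HSPA1B rose from 10.0 and 17.6 to 264 and 253 CPM, but shares nearly all its sequence with HSPA1A, so its counts are uncertain. The marked genes with the largest falls included ULBP1, a ligand of the NKG2D receptor (36.1 and 30.9 CPM in A549, with 3 and 0 counts in A549/DDP), ZNF229 (21.6 and 11.7 CPM, with 1 and 0 counts), and GREM1, a BMP antagonist (72.3 and 19.4 CPM, then 1.25 and 0.086 CPM). The other 2 have no symbol and were at 0 counts in both A549/DDP libraries.

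Among unmarked genes, the 5 largest rises were in CP, VTN, MAGED1, RN7SL1 and HGD. CP, the copper carrier ceruloplasmin, went from 5.68 and 5.92 CPM to 150.5 and 171 CPM, and VTN, the adhesive glycoprotein vitronectin, from 6.50 and 6.21 to 135 and 109 CPM. RN7SL1 is a small cytoplasmic RNA gene with near-identical copies, so its counts are uncertain. Of the falls, CA8 went from 21.6 and 28.7 CPM to 0 counts in both A549/DDP libraries, at least 245-fold lower when set against the level of 3 counts per library. ANKRD1, a muscle ankyrin repeat protein also known as a YAP target, fell from 312 and 189 CPM to 1.42 and 2.47 CPM, a log2 fold change of -7.00 ± 0.43 (SE, edgeR adjusted p = 0.001562). GFRA1, a GDNF receptor, fell from 94.3 and 57.4 to 0.067 and 0.459 CPM, and TNFRSF9 and a gene with no symbol were the others. Both classes thus included transcripts present in A549 and near absent from A549/DDP; the reverse was left out by the requirement of 5 TPM in A549.

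Of the study's genes, AKR1C1 rose from 105 and 113 CPM to 1043 and 969 CPM (log2 fold change 3.21 ± 0.16, edgeR adjusted p = 0.001555) and KEAP1 from 41.9 and 54.5 to 129 and 116 CPM (1.34 ± 0.21, edgeR adjusted p = 0.01358). YTHDF1 was at 107 and 83.0 CPM in A549 and 88.2 and 94.1 CPM in A549/DDP, where the lines overlap. The paper, by contrast, reports less YTHDF1 mRNA (RT-PCR) and protein (western blot) in A549/DDP than in A549. NFE2L2 fell from 235 and 206 to 95.4 and 105.9 CPM (-1.13 ± 0.17, edgeR adjusted p = 0.0122). At an adjusted p under 0.05, AKR1C1 and KEAP1 were thus higher and NFE2L2 lower. YTHDF1 did not pass (edgeR adjusted p = 0.8967). CDK2, CDK4, CCND1 and CDKN1B did not pass either (edgeR adjusted p = 0.1029, 0.8987, 0.5373 and 0.09611).

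Of the 21 genes of the m6A machinery, 7 were lower in A549/DDP at an edgeR adjusted p under 0.05 and none higher, against 12.5% lower and 8.07% higher among all expressed genes, and they came from every class. The lists are small, some of these p-values lie near the limit, and such counts moved when single libraries were left out. The marked ones were YTHDC1, from 474 and 321 to 82.4 and 83.5 CPM, IGF2BP2, from 132 and 100.2 to 17.9 and 18.5 CPM, METTL16, from 190 and 149 to 80.1 and 58.3 CPM, and WTAP, from 109 and 73.3 to 40.7 and 35.6 CPM (edgeR adjusted p = 0.004339, 0.003181, 0.01984 and 0.02768). The unmarked ones were IGF2BP1, from 454 and 346 to 205 and 225 CPM, and IGF2BP3, from 92.2 and 83.0 to 44.7 and 47.3 CPM (edgeR adjusted p = 0.03011 and 0.02899), and HNRNPC, in 1 list, fell from 1180 and 783 to 558 and 487 CPM (edgeR adjusted p = 0.04754). IGF2BP2 was also among the marked genes with no peak in either A549/DDP list, while YTHDC1 had 5 and 6 peaks in A549 and 7 and 4 in A549/DDP.

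The TPM limit of 5 lay within a continuous range of values. The marked genes just inside it were ZNF407 (8.06 and 5.01 TPM), LINC01547, HRH1, CXXC5 and TIMP4, and those just outside were RNF32-DT (4.98 and 6.92 TPM), PPARD, CHST7, KTI12 and ZNF841. The unmarked genes just inside were CD38 (5 and 9.39 TPM), EPHX2, IPP, SPATA18 and SEC22A, and just outside were TMEM65 (4.99 and 6.27 TPM), DPYD, SPATA5, TMEM50B and CHRFAM7A. In total, 752 genes named by both A549 lists were left out for a TPM under the limit. These neighbours differed by less than the spread between the 2 inputs.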

How the data were processed

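The authors aligned reads to hg38 and quantified genes; the submitters' processing notes name STAR, RSEM and bedtools, with no versions. The deposited input tables hold expected counts, TPM, FPKM, length and effective length per gene, and the deposited peak lists hold m6A peaks per library with exon blocks and a p-value; the peak caller, and whether that p-value is adjusted, are not given in the sources used here. Libraries were grouped by their labels; the replicate numbers of the A549 m6A-seq labels and of their files are swapped, which does not affect the classes, and labels were followed.

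Gene IDs were matched to symbols (56993 of 58037) and to RefSeq spans by symbol (9849 of 10174 expressed genes; 12 of these genes are second copies of pseudoautosomal genes). The 25 families were matched by symbol pattern, and 10 pseudogenes were left out after values were seen. Members, lists and the rule for named genes were chosen with earlier results of these data known. Named genes were the 10 most abundant of each class, the longest unmarked and shortest marked genes, those with most peaks, those beside the TPM limit, the largest changes past an adjusted p of 0.05 with at least 5 mean CPM, the study's genes, the m6A machinery and the most abundant of each family and class.

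Counts were rounded and tested in R 4.3.3 with edgeR 4.0.16 (TMM, filterByExpr, Benjamini-Hochberg over all genes tested), and with DESeq2 1.42.0 as an alternative; both were tested on simulated data. P-values measure only the spread between these libraries, which may be technical. Depth in A549/DDP was 29225500 and 33971600 expected counts. Descriptions used Python 3.11.15 with scipy 1.17.1.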

Additional observations from a re-analysis of the deposited data

How the results depend on the processing

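The ratio of median genomic span stayed under 1 in all 8 alternatives (chosen after seeing the data): 0.494 at TPM of at least 1, 0.507 at 10, 0.405 with peaks at p of 1e-05 or less, 0.553 with p of 0.001 or less, 0.398 with classes from the A549/DDP lists, and 0.555 to 0.568 with 1 A549 m6A-seq list left out. The ratio of median effective length (1.24) was 1.25 at TPM of at least 1, 1.22 with p of 0.001 or less, 1.16 with a gene in either list marked, 1.22 for the length column, 1.20 for protein-coding genes, and 1.16 to 1.28 with 1 library left out; it was 0.803 with p of 1e-05 or less and 0.943 with A549/DDP lists. The ratio of median TPM (1.31) was 2.43 at TPM of at least 1, 1.07 at 10, 1.14 with FPKM of at least 5, 1.21 with either list, and 1.13 to 1.59 with 1 library left out; it was 0.946 with p of 1e-05 or less and 0.941 in the second A549 input pair, whose libraries held 855034 and 982036 expected counts, with 15.97% and 12.7% of marked and 22.5% and 18.5% of unmarked genes at 0. The cause of these reversals was not tested. At each p limit, a gene with only weaker peaks counted as having none. With p of 1e-05 or less 796 genes were marked and 6687 unmarked; with either list 6300 were marked, at TPM of at least 1 5889 were unmarked, and with 1 library left out 4003 to 5810 were marked and 4205 to 5782 unmarked. The share of marked genes in both A549/DDP lists was 14.7% with p of 1e-05 or less, 57.0% for genes at 5 TPM also in A549/DDP, and 56.1% to 83.3% with 1 list; that of unmarked genes in neither was 76.8%, 62.9%, and 69.7% to 89.6%. Of 50 alternative family shares, 45 stayed within the Wilson 95% interval; with p of 0.001 or less those of zinc finger genes (47.3%), mitochondrial ribosomal proteins (33.3%), RNA helicases (26.5%) and solute carriers (33.1%) moved, and at TPM of at least 10 zinc finger genes (70.3%).

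DESeq2 called 563 marked genes higher and 843 lower, and 419 unmarked genes higher and 708 lower. With no filter beyond 1 count, edgeR called 556 marked genes higher and 906 lower, and 405 unmarked genes higher and 718 lower. With 1 library left out, which leaves a lone sample assumed to vary like the other group, marked genes higher ranged from 161 to 520 and lower from 430 to 909, and unmarked genes higher from 157 to 410 and lower from 354 to 705. The replicate block gave 496 and 813 marked and 365 and 639 unmarked genes. Deviations of A549 input 1 and A549/DDP input 1 from their group means correlated at 0.0227 over 16406 genes. With 2 libraries per group, the other pair gives the same value by construction. This value therefore cannot show whether same-numbered libraries shared a batch.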

Other observations

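The genes named by 1 A549 list were uneven. Replicate 1 alone named 1908 of the 2398, with a median of 29.3 TPM, and replicate 2 alone named 490, with a median of 47.2 TPM, above the median of the marked genes. Their median spans were close, at 29406 and 30626 bases, and both lay between those of the marked and unmarked genes.

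In the best-scored peak of each marked gene the listed p-value was 1e-05 or less for 43.2% of genes in replicate 1 and 33.5% in replicate 2. Of the peaks in marked genes, 67.0% and 75.8% lay in a single block. Peaks that ended within 1000 bases of the RefSeq 3′ end, or beyond it, were found in 59.2% of marked genes with a span in replicate 1 and 52.1% in replicate 2, and peaks that began within 1000 bases of the 5′ end, or before it, in 47.7% and 34.2%.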
